A study of Homo sapiens with 16 samples.

Results

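The genes described here are NAA40 and 9 other genes that encode subunits of the human N-terminal acetyltransferases, namely NAA10, NAA15, NAA16, NAA20, NAA25, NAA30, NAA35, NAA50 and NAA60. They were chosen by name, and all 10 of the 10 had a row in the table of 33937 genes. All 10 also passed the filter on low counts in every comparison.

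N-terminal acetyltransferases move an acetyl group from acetyl-CoA to the first residue of a protein, in most cases while the protein is still being made on the ribosome. Each enzyme recognises its own class of N termini. NatA joins the catalytic subunit NAA10 to the ribosome anchor NAA15, or to its paralogue NAA16, and acts on small residues that are exposed once the initiator methionine has been removed. NAA50 is the catalytic subunit of NatE and binds to NatA. NatB is made of the catalytic NAA20 and the auxiliary NAA25, and NatC of the catalytic NAA30 with the auxiliary NAA35 and NAA38. NAA60 works on membrane proteins at the Golgi. NAA40, also called NatD, works without a partner and is known for its very narrow choice of substrates, the N-terminal serine of histones H4 and H2A.

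RNA-seq was carried out in the established colorectal cancer cell line HCT116, which is of human origin, in 16 libraries of 4 groups with 4 replicates each. The lines were stable cell lines carrying a doxycycline (dox)-inducible construct, either with a scrambled sequence (SCR) or with a short hairpin RNA (shRNA) against NAA40 (NAA40-KD), and were grown for 96 h with 1 μg/ml dox (+dox) or without it (−dox). The labels name no particular shRNA line, while the study's account of its RNA-seq names NAA40-KD2, 1 of its stable lines against NAA40. Values are whole-number read counts per gene, and each library held between 11065606 and 13855486 counts in total.

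The study made an shRNA-resistant NAA40 for its rescue experiments by changing the stretch that the shRNA of the NAA40-KD2 line pairs with. Its primer gives the altered stretch, and matching it to NAA40 transcripts located the native one at chr11:63953984-63954004 (GRCh38, + strand), in exon 7 of 8 of NAA40-202 and within the coding sequence. The pair is shown because it is the target site of that shRNA, and capitals mark the 6 positions that differ.

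Native NAA40: gaaGgtTatgTtAacAgtAtt

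shRNA-resistant NAA40: gaaAgtGatgCtGacGgtGtt

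Counted from 1 at the 5′ end of the site, the changes from native to resistant are G4A, T7G, T11C, A13G, A16G and A19G. The native 21 bases occur in 8 of the 10 annotated NAA40 transcripts, and in transcripts of 1 gene only, NAA40. Transcripts of the other 9 acetyltransferase genes therefore hold no full match to it.

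On GRCh38 (GENCODE release 29), NAA40 lies at chr11:63938959-63957328 (+ strand). The NatA and NatE genes are NAA10 at chrX:153929242-153935223 (− strand), NAA15 at chr4:139301455-139420033 (+ strand), NAA16 at chr13:41311205-41377030 (+ strand) and NAA50 at chr3:113716460-113746300 (− strand). The NatB genes are NAA20 at chr20:20017116-20033655 (+ strand) and NAA25 at chr12:112026689-112109022 (− strand). The NatC genes are NAA30 at chr14:57390544-57415917 (+ strand) and NAA35 at chr9:85941146-86022298 (+ strand), and NAA60 lies at chr16:3443611-3486963 (+ strand). Exons of NAA10 share 481 bases with ARHGAP4 on the same strand, those of NAA15 share 54 bases with AC097376.2 on the opposite strand, and those of NAA60 share 466 bases with 3 other genes. Whether counting used the strand is not given, so reads from these shared bases are uncertain. The exons of the other 7 genes overlap no other annotated exon.

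The labels and 1 library touch the results below. Within the knockdown line, low NAA40 was found under the label (−dox) but not under (+dox), which goes against the labels of an inducible knockdown. The groups are therefore named by their labels throughout, and a direction drawn from them holds for the labels only. The short names of the libraries labelled (−dox) carry "wDox", which could be read as with dox or as without it, and which reading is right was not settled here. Replicate 4 of NAA40-KD (−dox) stands apart from the other 3 libraries of its group. Chi-square per degree of freedom between this library and each of the other 3 was 128 to 140, against 2.43 to 7.16 among those 3 and 1.74 to 40.5 over the 21 other pairs within groups. Most results that rest on this library are given with and without it. Of 7 epithelial markers, 6 were detected throughout (EPCAM from 257 to 397 CPM) and VIL1 did not exceed 0.273 CPM. The summed level of the 7 was 5136 to 11090 CPM in NAA40-KD (−dox), where replicate 4 had the highest sum and the other 3 reached at most 6041 CPM. In SCR (−dox) the sum was 3812 to 4876 CPM, in SCR (+dox) 4333 to 5508 CPM and in NAA40-KD (+dox) 4072 to 4413 CPM. The markers did not move together in replicate 4 of NAA40-KD (−dox). KRT8 (5153 CPM), KRT19 (4002), KRT18 (1506) and CDX2 (31.45) were highest there of all libraries. EPCAM was lowest there (257 CPM), and CDH1 (143 CPM) lay within its range of 119 to 177 CPM. Of 6 markers of other cell types, 4 (PTPRC, PECAM1, ALB and GFAP) stayed below 0.5 CPM in all libraries. COL1A1 (56.7 to 195 CPM) and DES (4.6 to 11.7 CPM) were detected in every library. The summed level of the 6 was 71.9 to 203.5 CPM in NAA40-KD (−dox), again highest in replicate 4 and at most 86.2 CPM in the other 3, where COL1A1 made up most of it with 195 CPM in replicate 4. Across the other groups this sum ran from 65.5 to 102.6 CPM. The part of these markers in the results was not tested.

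Levels are given as CPM, reads of a gene scaled to a common library size, after TMM normalization over all 16 libraries. For NAA40, the libraries labelled SCR (−dox) had 34.5, 25.9, 29.1 and 28.2 CPM in replicates 1 to 4. Those labelled SCR (+dox) had 26.1, 28.4, 26.2 and 28.8 CPM. The libraries labelled NAA40-KD (−dox) had 12.6, 11.6, 9.27 and 13.8 CPM, and those labelled NAA40-KD (+dox) had 31.5, 29.3, 28.7 and 31.9 CPM. All 4 libraries of NAA40-KD (−dox) lie below all 12 others, and the other 3 groups lie close together. Behind these levels are 127 to 448 reads per library.

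The group means of NAA40, in falling order, were 30.3 ± 1.59 CPM in NAA40-KD (+dox), 29.4 ± 3.63 in SCR (−dox), 27.4 ± 1.45 in SCR (+dox) and 11.8 ± 1.94 in NAA40-KD (−dox) (SD, n = 4 each). NAA40-KD (+dox) overlapped SCR (−dox), and SCR (−dox) overlapped SCR (+dox), so only the step to NAA40-KD (−dox) separates neighbours in this order. Without replicate 4 the NAA40-KD (−dox) mean was 11.2 ± 1.71 CPM (SD, n = 3). In bulk RNA, fewer cells with a transcript and less of it per cell cannot be told apart.

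**Figure D1:**
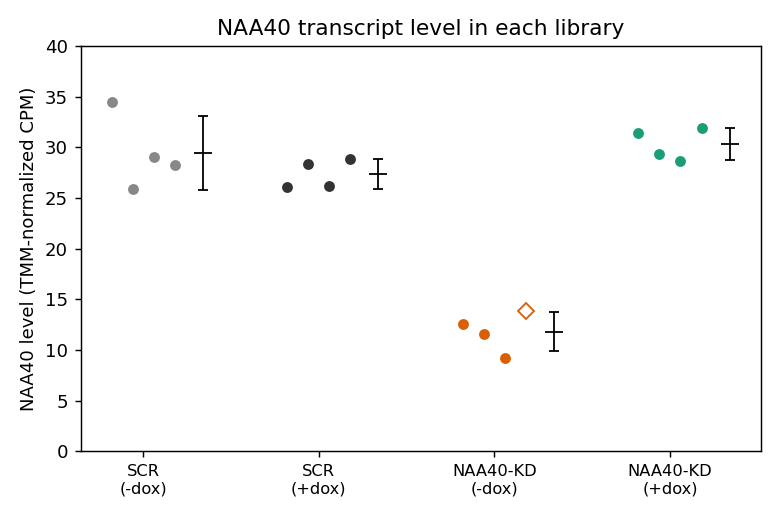
NAA40 level in TMM-normalized CPM (y axis) for each of the 16 libraries, by labelled group (x axis), with the mean and SD of 4 libraries beside the points. The open diamond is replicate 4 of NAA40-KD (−dox), and the 4 libraries of that group sit between 9.27 and 13.8 CPM, below all others.

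The first comparison asks how the knockdown line differs from the control line among libraries labelled (−dox). NAA40 was at 40.2% of its SCR (−dox) mean, a log2 fold change of −1.31 ± 0.18 (SE; edgeR quasi-likelihood test, adjusted p = 0.00521). The groups of 4 did not overlap (exact permutation test, two-sided, p = 0.0286, the smallest that 4 against 4 allows). Of the 10 genes, NAA40 alone was called lower and 0 were called higher at an adjusted p under 0.05, where 3.54% of the 13903 genes tested were called lower and 2.88% higher. NAA40 also passed the study's fold threshold, an absolute log2 fold change above 1, together with an adjusted p under 0.05, as did 3.47% of genes. The median log2 fold change of the 10 genes was −0.13, beside 0.04 over all genes tested. Without replicate 4 of NAA40-KD (−dox), NAA40 gave −1.40 ± 0.14 (SE; edgeR, adjusted p = 2.53e-06).

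NAA16, the paralogue of NAA15 that can also anchor NAA10, had levels that did not overlap between these groups either. The share of all genes tested without such overlap was not determined in any comparison. NAA16 had 22.1, 19.9, 18.9 and 10.1 CPM in the NAA40-KD (−dox) libraries and 33.1, 26.4, 33.7 and 25.6 CPM in SCR (−dox). Its log2 fold change was −0.74 ± 0.23 (SE) and missed the threshold (edgeR, adjusted p = 0.0936). Replicate 4 is the lowest of these libraries, and without it the value was −0.55 ± 0.12 and passed (adjusted p = 0.0028).

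Without replicate 4, NAA25 and NAA30 also passed in this comparison, both upwards. NAA25, the auxiliary subunit of NatB, had 181, 184, 164 and 68.7 CPM in NAA40-KD (−dox) and 140, 108, 138 and 130 CPM in SCR (−dox). Its first 3 replicates lie above all 4 controls, and replicate 4 lies below them. The log2 fold change was 0.21 ± 0.28 with replicate 4 (edgeR, adjusted p = 0.684) and 0.45 ± 0.10 without it (adjusted p = 0.00243). NAA30, the catalytic subunit of NatC, had 56.2, 55.5, 59.1 and 29.6 CPM against 37.6, 38.0, 43.8 and 44.5 CPM in SCR (−dox), the same arrangement. It gave 0.29 ± 0.21 (SE; adjusted p = 0.445) with replicate 4 and 0.47 ± 0.09 (adjusted p = 0.00114) without it. In that fit 2 of the 10 genes were higher and 2 lower, where 17.1% of all genes tested were called higher and 19.4% lower.

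The other 6 genes missed the threshold in both fits. Their log2 fold changes without replicate 4 ran from −0.27 for NAA60 to 0.11 for NAA15. With it they were −0.16 for NAA15, −0.11 for NAA35 and 0.07 for NAA60, each of which had the opposite sign without it. NAA10 gave 0.34, NAA20 −0.30 and NAA50 −0.31 with all libraries.

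**Figure D2:**
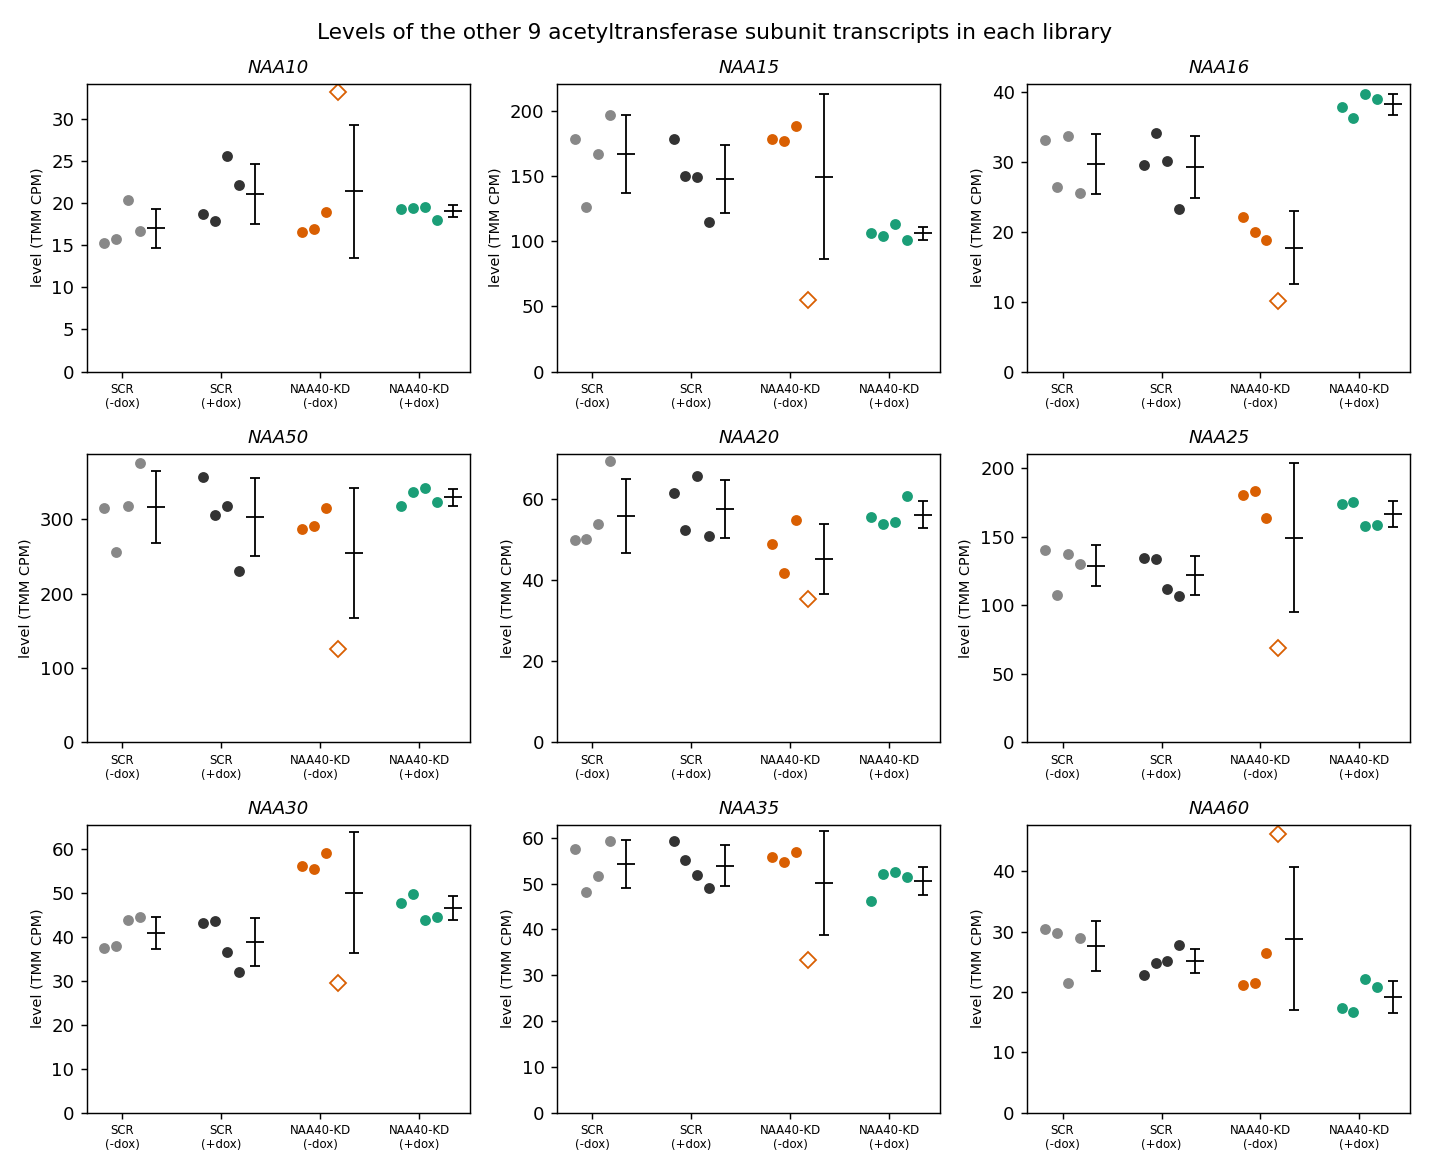
Levels of the other 9 genes in TMM-normalized CPM (y axes, from 0) for each library, by labelled group (x axes), with the mean and SD of 4 libraries beside the points. Open diamonds mark replicate 4 of NAA40-KD (−dox), which is the lowest of its group for NAA15, NAA16, NAA50, NAA20, NAA25, NAA30 and NAA35 and the highest for NAA10 and NAA60.

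The knockdown line was then compared with itself, NAA40-KD (+dox) against NAA40-KD (−dox), which shares its (−dox) libraries with the comparison above. NAA40 was at 256.5% of the (−dox) mean, a log2 fold change of 1.36 ± 0.15 (SE; edgeR, adjusted p = 0.0024; exact permutation p = 0.0286). NAA16 was higher as well. Its libraries labelled NAA40-KD (+dox) had 37.9, 36.3, 39.7 and 39.0 CPM, all above the 4 values of NAA40-KD (−dox) given above. The log2 fold change of NAA16 was 1.10 ± 0.22 (SE; adjusted p = 0.0167). It was lost when any 1 of the 4 libraries labelled NAA40-KD (+dox) was left out (edgeR, adjusted p from 0.0539 to 0.0641), and was 0.91 ± 0.08 without NAA40-KD (−dox) replicate 4 (adjusted p = 2.14e-09). Of the 10 genes 2 were called higher and 0 lower, where 4.71% of the 13844 genes tested were called higher and 5.5% lower, and both also passed the fold threshold, as did 3.99% of genes.

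Without NAA40-KD (−dox) replicate 4, 4 of the 10 genes were higher (NAA40, NAA16, NAA20 and NAA50) and 3 lower (NAA15, NAA30 and NAA60), where 25.8% of genes were called higher and 26.6% lower. The largest of the added changes was in NAA15, the main NatA anchor. It had 107, 104, 113 and 101 CPM in NAA40-KD (+dox), against 178, 176.5, 189 and 54.7 CPM in NAA40-KD (−dox). The 4 (+dox) libraries thus lie between replicate 4 and the other 3 of the (−dox) group. The log2 fold change of NAA15 was −0.50 ± 0.33 (SE; edgeR, adjusted p = 0.362) with replicate 4 and −0.77 ± 0.05 (adjusted p = 1.82e-11) without it. NAA30 gave −0.30 ± 0.07 without it, and NAA20, NAA50 and NAA60 gave 0.21, 0.15 and −0.26. With replicate 4 the values were −0.11 for NAA30, 0.31 for NAA20, 0.37 for NAA50 and −0.59 for NAA60 (edgeR, adjusted p from 0.186 to 0.767). NAA10, NAA25 and NAA35 missed the threshold in both fits, with log2 fold changes from −0.14 to 0.12 without replicate 4.

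**Figure D3:**
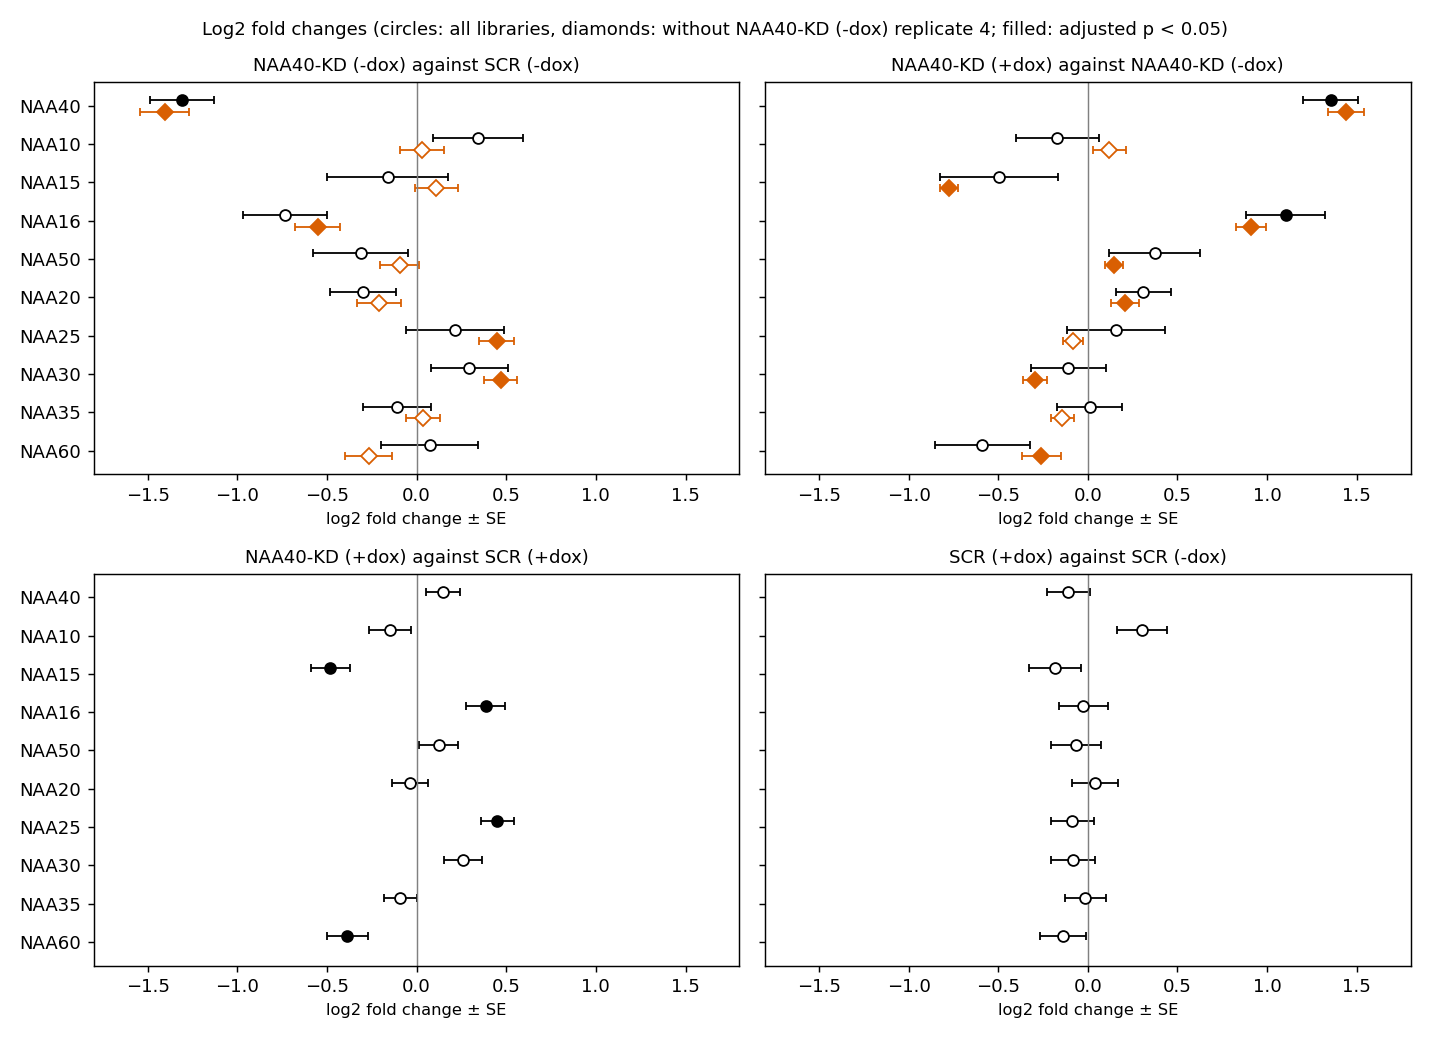
Log2 fold changes of the 10 genes (x axes, with SE bars) in the 4 comparisons, from edgeR fits. Circles use all libraries and diamonds leave out replicate 4 of NAA40-KD (−dox), and filled symbols have an adjusted p under 0.05. NAA40 is filled in both panels that include NAA40-KD (−dox), at −1.31 and 1.36, and in neither of the others.

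The study describes a comparison of the lines under dox, which by the labels is NAA40-KD (+dox) against SCR (+dox). It reports NAA40 depletion in dox-treated NAA40-KD cells by qRT-PCR and western blot. Its RNA-seq methods state that knockdown was checked by qRT-PCR. The comparison by the labels does not use replicate 4 of NAA40-KD (−dox). Here NAA40 was at 111% of the control mean, with a log2 fold change of 0.15 ± 0.10 (SE; edgeR, adjusted p = 0.281; exact permutation p = 0.0571). NAA15, NAA16, NAA25 and NAA60 passed the threshold, 2 of the 10 genes upwards and 2 downwards, where 10.9% of the 13869 genes tested were called higher and 13.7% lower. No one of these 4 passed an absolute log2 fold change of 1. All 4 calls were lost in the fit over all 16 libraries (edgeR, adjusted p = 0.335 for NAA15, 0.256 for NAA16, 0.25 for NAA25 and 0.32 for NAA60), where the log2 fold changes were −0.48, 0.39, 0.45 and −0.39. That fit takes in replicate 4 of NAA40-KD (−dox) and made fewer calls over all genes. It called 278 of 14392 genes higher and 688 lower, against 1506 and 1896 of 13869 in the main fit. The median log2 fold change of the 10 genes was 0.04, beside −0.0042 over all genes.

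NAA15 was lower, at −0.48 ± 0.11 on the log2 scale (SE; edgeR, adjusted p = 0.00383), since SCR (+dox) had 178, 150, 149 and 115 CPM against the 101 to 113 CPM given above. Its paralogue NAA16 was higher by 0.38 ± 0.11 (adjusted p = 0.016), against 29.6, 34.1, 30.1 and 23.3 CPM in SCR (+dox). Both pairs of groups were without overlap, and the anchors moved in opposite directions.

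NAA25 was higher by 0.45 ± 0.09 on the log2 scale (SE; edgeR, adjusted p = 0.00201). It had 174, 175, 158 and 159 CPM in NAA40-KD (+dox) and 134, 134, 112 and 107 CPM in SCR (+dox), again without overlap. This is close to its 0.45 in the libraries labelled (−dox) without replicate 4, a comparison that has no library in common with this one. With replicate 4 the value among those libraries was 0.21 and was not called. NAA20, the catalytic partner of NAA25, gave −0.04 ± 0.10 here (adjusted p = 0.817).

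NAA60, the Golgi acetyltransferase, was lower, at −0.39 ± 0.11 on the log2 scale (SE; edgeR, adjusted p = 0.0201). It had 17.3, 16.7, 22.2 and 20.8 CPM in NAA40-KD (+dox) and 22.8, 24.9, 25.2 and 27.7 CPM in SCR (+dox), so that the nearest libraries of the groups almost meet. NAA30 did not overlap between the groups either, with 43.9 to 49.9 CPM against 32.0 to 43.6 CPM, but its log2 fold change of 0.26 ± 0.11 missed the threshold (adjusted p = 0.084). NAA30 passed without SCR (+dox) replicate 2 (adjusted p = 0.0489). NAA16 was not called without NAA40-KD (+dox) replicate 3 (adjusted p = 0.0544), and NAA60 not without replicate 1 or 2 of that group (adjusted p = 0.0755 and 0.0844).

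Between the SCR groups, which share the control construct and differ in the dox label, 0 of the 10 genes and 0% of the 13882 genes tested were called with edgeR. DESeq2 and limma-voom also called 0. Before adjustment 271 of the 13882 genes had an edgeR p under 0.05, fewer than that threshold gives by chance when no gene differs. NAA40 was at 93% of the (−dox) mean (log2 fold change −0.11 ± 0.12 SE, adjusted p = 1; exact permutation p = 0.457). The log2 fold changes of the 10 genes ran from −0.18 for NAA15 to 0.30 for NAA10.

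Whether the dox label made a different difference in the knockdown line than in the control line was tested with an interaction term over all 16 libraries. For NAA40 the knockdown-to-control log2 fold change was 1.46 ± 0.18 higher among libraries labelled (+dox) than among those labelled (−dox) (SE; edgeR, adjusted p = 0.00022). For NAA16 it was 1.12 ± 0.27 higher (adjusted p = 0.0145), and 0 of the 10 genes were called lower. Over all 14392 genes 4.31% were called higher and 4.91% lower. Without NAA40-KD (−dox) replicate 4 the terms were 1.54 for NAA40 (adjusted p = 4.65e-07) and 0.93 for NAA16 (adjusted p = 0.000336). NAA15 was then called lower, at −0.60 ± 0.17 (adjusted p = 0.0137), where 11.9% of genes were called higher and 12.3% lower. NAA25 had an interaction term of −0.003 ± 0.14 in that fit (adjusted p = 0.99). With all libraries its term was not called either. Its log2 fold changes between the lines were then 0.45 at (+dox) and 0.21 at (−dox).

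Because partner subunits work as complexes, their counts were also compared within each library as log2 ratios, which do not depend on normalization between libraries. Over 5 ratios and 4 comparisons, 20 exact permutation tests were made, and 0 of them passed an adjusted p of 0.05. The smallest adjusted value was 0.0952, and an unadjusted p of 0.0286 is the smallest that 4 against 4 allows. A single ratio at that value could not pass after adjustment over 20 tests. The count of 0 therefore does not show that the ratios were alike. These ratios are of counts, and so are not ratios of molecules, since the genes differ in length.

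The ratio of the NatA anchors, NAA15 to NAA16, separated NAA40-KD (+dox) from both groups it was compared with. On the log2 scale it was 1.47 ± 0.07 in NAA40-KD (+dox), 2.33 ± 0.19 in SCR (+dox), 2.97 ± 0.39 in NAA40-KD (−dox) and 2.48 ± 0.31 in SCR (−dox) (SD, n = 4 each). The (+dox) libraries of the knockdown line ranged from 1.37 to 1.52, below all other libraries. The difference was −0.86 from SCR (+dox) and −1.50 from NAA40-KD (−dox) (exact permutation p = 0.0286 and adjusted p = 0.0952 for each). Without replicate 4 of NAA40-KD (−dox), the mean of that group was 3.16 ± 0.15 (SD, n = 3) and the latter difference −1.69.

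In NatC, the ratio of NAA30 to NAA35 was higher in the knockdown line under either label. Its log2 values were −0.02 ± 0.10 in NAA40-KD (−dox) and −0.12 ± 0.14 in NAA40-KD (+dox), against −0.40 ± 0.16 in SCR (−dox) and −0.48 ± 0.11 in SCR (+dox) (SD, n = 4 each). The groups did not overlap in either comparison of lines, replicate 4 of NAA40-KD (−dox) included at −0.17, and the differences were 0.38 and 0.36 (exact permutation p = 0.0286, adjusted p = 0.0952 for both).

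In NatB, the ratio of NAA20 to NAA25 differed by −0.49 on the log2 scale between NAA40-KD (+dox) and SCR (+dox), without overlap (exact permutation p = 0.0286, adjusted p = 0.0952). Among libraries labelled (−dox) the difference was −0.43 and the groups overlapped (exact permutation p = 0.171, adjusted p = 0.343). The overlap came from replicate 4 of NAA40-KD (−dox), at −0.965. Replicates 1 to 3 were at −1.89, −2.14 and −1.58, below the −1.49 to −0.91 of SCR (−dox). The difference was −0.65 without replicate 4. In NatA, the ratio of NAA10 to NAA15 was −3.42, −3.38 and −3.32 in NAA40-KD (−dox) replicates 1 to 3 and −0.72 in replicate 4, which had the highest NAA10 and the lowest NAA15 of the 16 libraries. All 4 of its comparisons overlapped, with exact permutation p from 0.171 to 0.743 and adjusted p from 0.343 to 0.825. NAA40-KD (+dox) had −2.47, −2.43, −2.53 and −2.49, above replicates 1 to 3 of NAA40-KD (−dox) and below replicate 4. Between these groups the difference was 0.23 with replicate 4 and 0.90 without it.

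NAA40 was also set against the sum of the other 9 genes in the same library. The log2 ratio was −6.10, −6.22, −6.60 and −4.97 in NAA40-KD (−dox) and −4.64, −4.75, −4.87 and −5.07 in SCR (−dox). Replicate 4 alone falls within the range of the controls on this scale, although its NAA40 level of 13.8 CPM lies below theirs. The difference was −1.14 with it (exact permutation p = 0.0571, adjusted p = 0.143) and −1.48 without it. In NAA40-KD (+dox) against NAA40-KD (−dox) the difference was 1.19, without overlap (exact permutation p = 0.0286, adjusted p = 0.0952). Without replicate 4 this difference was 1.53.

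**Figure D4:**
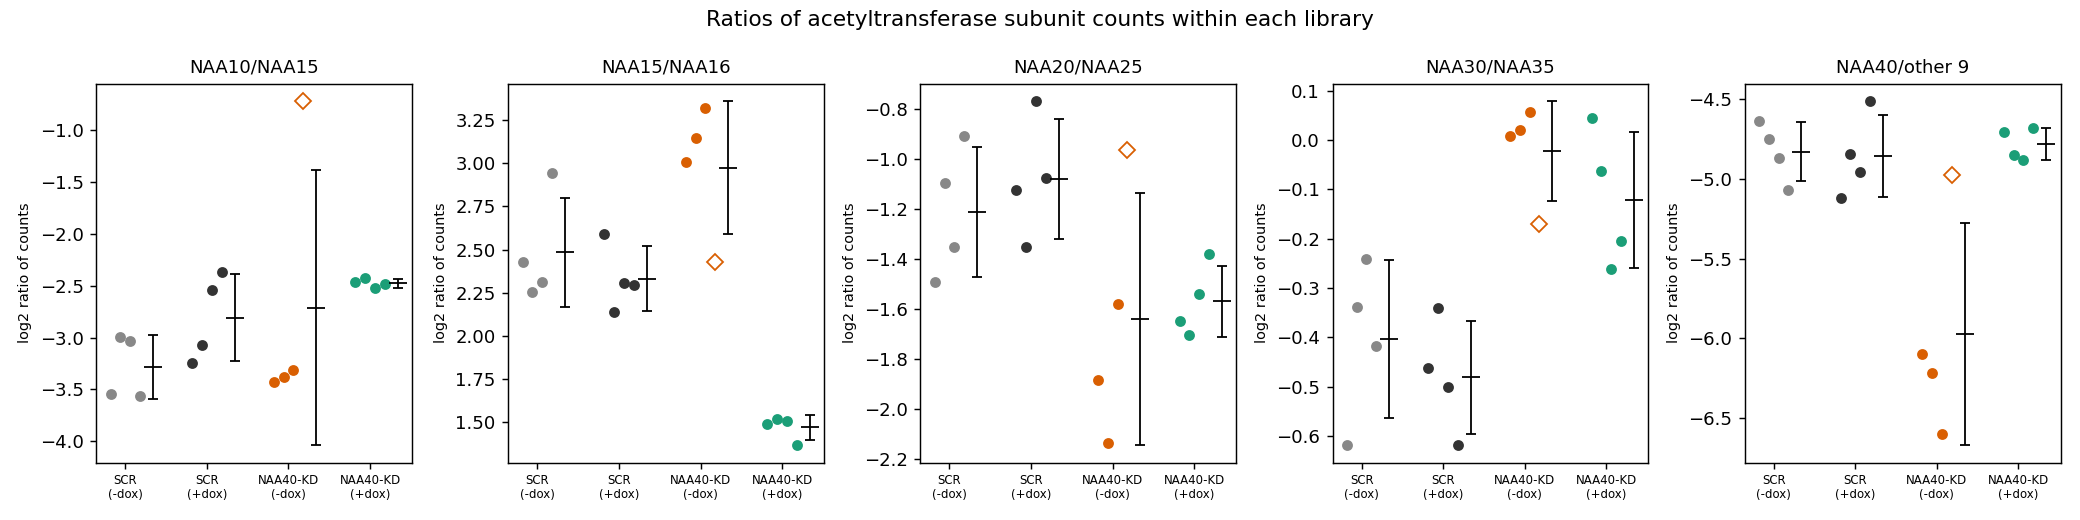
Log2 ratios of read counts within each library (y axes) for 4 pairs of subunits and for NAA40 over the sum of the other 9 genes, by labelled group (x axes), with the mean and SD of 4 libraries beside the points. Open diamonds are replicate 4 of NAA40-KD (−dox), which lies at −0.72 for NAA10 over NAA15 while the other libraries of its group lie from −3.42 to −3.32.

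Levels of different genes were compared only per kilobase of exon, as CPM per kb within a group (mean ± SD, n = 4). In SCR (−dox), NAA50 was highest at 49.2 ± 7.57 CPM per kb, followed by NAA20 at 23.5 ± 3.86. NAA15, NAA35 and NAA25 followed at 17.2 ± 3.09, 14.9 ± 1.43 and 12.7 ± 1.47 CPM per kb, and the ranges of neighbours among these 3 overlapped. NAA40 (5.53 ± 0.68), NAA30 (5.35 ± 0.48) and NAA16 (5.06 ± 0.73 CPM per kb) came next with overlapping ranges, and NAA60 (3.74 ± 0.56) and NAA10 (3.59 ± 0.49 CPM per kb) were lowest, with ranges that overlapped each other.

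The order was not the same in every group. In NAA40-KD (+dox) the middle 3 were reversed, with NAA25 at 16.5 ± 0.93, NAA35 at 13.9 ± 0.82 and NAA15 at 10.9 ± 0.53 CPM per kb, and their ranges did not overlap. NAA40 was at 5.70 ± 0.30 CPM per kb there and at 5.14 ± 0.27 in SCR (+dox). In NAA40-KD (−dox) it was the lowest of the 10 means, at 2.22 ± 0.36 CPM per kb, with a range of 1.74 to 2.60 that overlapped that of NAA16, 1.73 to 3.77. The annotated exon length enters these values and may not be the length of the transcripts in these cells.

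How the 10 genes varied over the 16 libraries was described by the SD of their log2 CPM. NAA40 had the widest spread (0.60), followed by NAA16 (0.51) and NAA15 (0.49), and NAA35 had the narrowest (0.20). These SDs take in replicate 4 of NAA40-KD (−dox) and were not determined without it. It was the lowest of the 16 libraries for NAA16 (10.1 CPM), NAA15 (54.7 CPM) and NAA35 (33.3 CPM). Among the 4 replicates labelled NAA40-KD (+dox) the coefficient of variation was 3.48% to 5.92% for 9 of the genes and 13.8% for NAA60. In NAA40-KD (−dox) it was 16.4% to 42.4% over the 10 genes, lowest for NAA40 and highest for NAA15, and 1.92% to 15.4% without replicate 4.

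To find the genes with levels most like those of NAA40, each gene's log2 CPM was centred on its own mean over the 16 libraries, and the root mean square of its difference from NAA40 was taken over 11130 genes with a mean of at least 5 CPM. This is a description of these libraries, with no test. The distances and ranks take in replicate 4 of NAA40-KD (−dox) and were not determined without it. The nearest was CDC45, a component of the replicative helicase, at 0.16. It was followed by MCM3, another subunit of that helicase (0.19), POLA2, a subunit of DNA polymerase alpha (0.21), CHAF1A, a subunit of a histone chaperone (0.21), and NES, which encodes the intermediate filament nestin (0.21). CDC45 had 27.8 ± 1.76 CPM in SCR (−dox), 28.6 ± 3.13 in SCR (+dox), 12.5 ± 2.26 in NAA40-KD (−dox) and 29.9 ± 1.58 in NAA40-KD (+dox) (SD, n = 4 each). MCM3 had 188 ± 31.7, 172 ± 18.8, 69.8 ± 11.1 and 197 ± 11.7 CPM in the same order. Of the other 9 acetyltransferase genes, NAA16 was nearest to NAA40, at rank 331 of 11130 with a distance of 0.38, and NAA20 came next at rank 1732. NAA50 and NAA35 ranked 3068 and 3928, and the ranks of NAA10, NAA25, NAA30, NAA60 and NAA15 ran from 6901 to 9493.

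**Figure D5:**
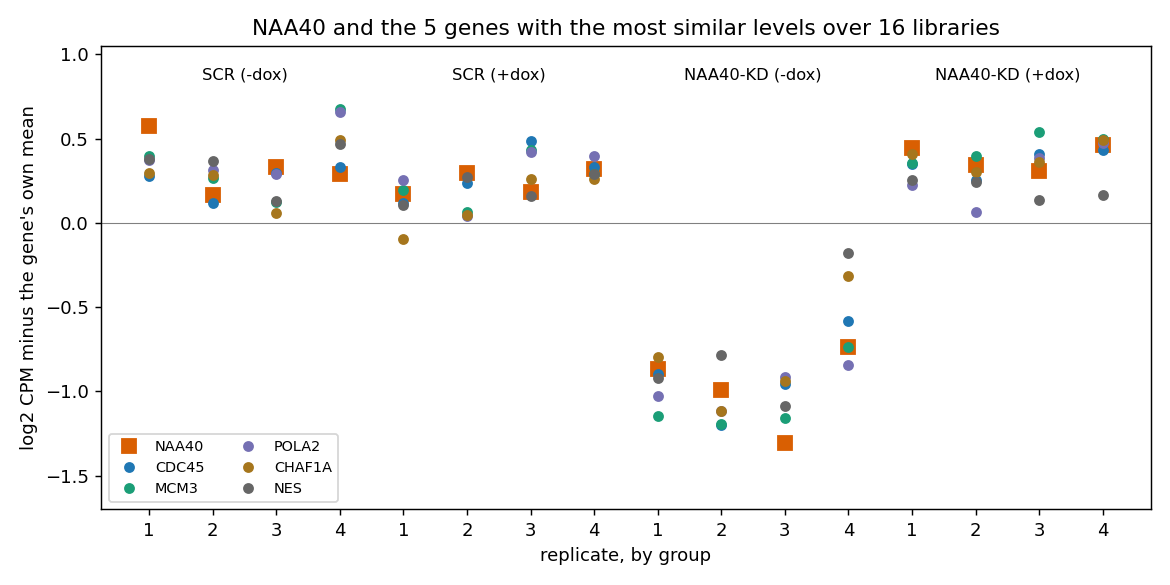
Log2 CPM minus each gene's own mean over 16 libraries (y axis) for NAA40 (squares) and the 5 genes nearest to it (circles), by labelled group and replicate (x axis). All 6 genes lie below 0 in the 4 libraries of NAA40-KD (−dox), where NES and CHAF1A are closest to 0 in replicate 4.

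Other genes of N-terminal processing and of acetyl transfer were read from 7 lists with 46 genes, of which 44 were tested. They cover further NAT genes and partners, removal of the initiator methionine, other N-terminal modifications, recognition of N-terminal degrons, supply of acetyl-CoA, lysine acetyltransferases and the subunits of casein kinase 2, a kinase for the histone serine that NAA40 acetylates. In NAA40-KD (−dox) against SCR (−dox), 1 of the 44 was higher and 0 were lower, where 2.88% of all genes tested were called higher and 3.54% lower. It was NMT2, an N-myristoyltransferase that attaches a fatty acid to N-terminal glycine. NMT2 had 97.1, 95.9, 105 and 62.3 CPM against 39.8, 37.7, 39.6 and 49.1 CPM, without overlap, a log2 fold change of 1.12 ± 0.19 (SE; edgeR, adjusted p = 0.0112). The value was 1.25 without replicate 4 (adjusted p = 3.09e-07). The median over the 44 genes was −0.01, beside 0.04 over all genes tested.

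By list, NMT2 was 1 of 3 genes of other N-terminal modifications. The numbers called were 0 of 3 further NAT genes and partners, 0 of 4 genes of methionine removal and 0 of 11 genes of degron recognition. They were also 0 of 10 genes of acetyl-CoA supply, 0 of 10 lysine acetyltransferases and 0 of 3 casein kinase 2 subunits. Without replicate 4, 6 of the 44 were higher and 6 lower, where 17.1% of all genes were called higher and 19.4% lower.

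Within the knockdown line, (+dox) against (−dox), 2 of the 44 genes were lower and 0 were higher, where 5.5% of all genes were called lower and 4.71% higher. ZER1, which recognises N-terminal glycine for degradation and was 1 of 11 in its list, changed by −0.92 ± 0.21 (SE; edgeR, adjusted p = 0.0252). It had 35.5, 33.0, 31.6 and 29.1 CPM against 49.1, 50.3, 56.5 and 88.4 CPM, and the value was −0.69 without replicate 4 (adjusted p = 6.53e-08). SLC25A1, the mitochondrial citrate carrier that feeds cytosolic acetyl-CoA and was 1 of 10 in its list, changed by −1.31 ± 0.28 (adjusted p = 0.0215). It had 55.5, 53.6, 56.1 and 55.9 CPM against 104, 96.5, 113 and 233 CPM, and gave −0.92 without replicate 4 (adjusted p = 1.13e-11). Replicate 4 is the highest library for both genes, and the groups do not overlap with or without it. The other 5 lists had 0 genes called. The median over the 44 genes was −0.12, beside −0.04 over all genes. Without replicate 4, 10 of the 44 were higher and 17 lower, beside 25.8% and 26.6% of all genes.

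Among libraries labelled (+dox), knockdown against control, 4 of the 44 genes were higher and 10 lower, beside 10.9% and 13.7% of all genes tested, and their median log2 fold change was −0.06 beside −0.0042 over all genes. In the order of the lists these were 0 higher and 1 lower of 3 NAT genes and partners, 1 and 0 of 4 for methionine removal, 1 and 1 of 3 other modifications, 1 and 2 of 11 for degron recognition, 0 and 3 of 10 for acetyl-CoA supply, 1 and 3 of 10 lysine acetyltransferases, and 0 and 0 of 3 casein kinase 2 subunits. SLC25A1 changed by −0.87 ± 0.11 (SE; edgeR, adjusted p = 1.9e-05) and ZER1 by −0.57 ± 0.09 (adjusted p = 0.000314), and NMT2 by 0.57 ± 0.10 (adjusted p = 0.000405). The 1 NAT partner was NAA38 of NatC, at −0.52 ± 0.14 (adjusted p = 0.0134), which is named here after its value was seen and shares 773 exon bases with CYB5D1 on the opposite strand. In SCR (+dox) against SCR (−dox), 0 of the 44 were called. The interaction term was called lower for 2 of the 44, ZER1 (−0.97 ± 0.24 SE; edgeR, adjusted p = 0.0165) and SLC25A1 (−1.36 ± 0.33, adjusted p = 0.0157), and higher for 0, where it was lower for 4.91% and higher for 4.31% of all genes. Without NAA40-KD (−dox) replicate 4 the terms were −0.745 for ZER1 and −0.97 for SLC25A1, both still called. In that fit 8 of the 44 were called lower and 2 higher, beside 12.3% and 11.9% of all genes.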

How the data were processed

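Libraries were grouped by their labels. Per the study's methods and the processing notes of the submitters, the authors aligned reads with STAR and counted them per gene with featureCounts. They deposited raw counts for 33937 genes in 16 libraries, without normalization. The methods name a mouse build, the notes name hg38 and GRCm38, and all gene identifiers are human. The number of columns matched to no sample was 0. The strand setting is not given in the sources used here. NAA11 was not analysed here.

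Log2 fold changes were computed from the counts with edgeR 4.0.16 in R 4.3.3 (TMM, robust quasi-likelihood F tests, two-sided, Benjamini-Hochberg adjustment over all genes) for genes above 1 CPM in 4 or more of the fitted libraries. Called means an adjusted p under 0.05. Each comparison used its own 8 libraries, and the interaction all 16. SEs were obtained as the absolute log2 fold change over the root of F. Ratios used a pseudocount of 0.5 and exact two-sided permutation tests over 70 arrangements (scipy 1.17.1), with adjustment over 20 tests. For likeness to NAA40, 0.1 was added to CPM. Whether libraries are independent cultures is given in the study's methods only as independent RNA samples, so p-values measure the spread between these samples.

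The members, the lists and the tests were chosen with earlier results of these data known. The genes named are the 10 members, the list genes called in either comparison with NAA40-KD (−dox) (at most 3 per list, by size) and the 5 genes nearest to NAA40. Exon lengths are from GENCODE release 29. The alternatives were DESeq2 1.42.0, limma-voom (limma 3.58.1), normalization by library size or upper quartile, no filter, a CPM >1 in every library, the replicate number as a block, a fit over all 16 libraries, each library left out, other thresholds and a pseudocount of 5.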

Additional observations from a re-analysis of the deposited data

Results flagged for a closer look

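For each of the 10 genes, 8 other genes named in the report and the 5 ratios, the libraries of each group of 4 were checked for a highest or lowest value far from the other 3 (Dixon's test at 95%). Of 92 such sets, 11 were flagged, and chance flags about 1 in 20. Of the 11, 8 lie in replicate 4 of NAA40-KD (−dox), and the sets are not independent of each other. In that library NAA15 (54.7 CPM), NAA30 (29.6 CPM), NAA35 (33.3 CPM) and NAA50 (125 CPM) were far below the other 3 replicates. NAA10 (33.2 CPM), SLC25A1 (233 CPM), MCM3 (86.3 CPM) and the log2 ratio of NAA10 to NAA15 (−0.72) were far above them. The other 3 flags were low values of NAA60 (21.5 CPM) and SLC25A1 (73.7 CPM) in SCR (−dox) replicate 3 and a high value of ZER1 (56.6 CPM) in SCR (−dox) replicate 2.

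For 4 genes the difference between the lines differed between the dox labels by the interaction term. With all 16 libraries the terms were 1.46 for NAA40 (edgeR, adjusted p = 0.00022), 1.12 for NAA16 (adjusted p = 0.0145), −0.97 for ZER1 (adjusted p = 0.0165) and −1.36 for SLC25A1 (adjusted p = 0.0157).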

How the results depend on the processing

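The log2 fold change of NAA40 kept its direction and its side of the threshold in all 16 alternatives run for each of the 4 comparisons and all 23 run for the interaction. With NAA40-KD (−dox) against SCR (−dox), these alternatives ranged from −1.40 to −1.20. The number of the 10 genes called moved more. In NAA40-KD (−dox) against SCR (−dox) it was 1, and 2 with DESeq2, with the fit over all 16 libraries and at an adjusted p under 0.1, and leaving out single libraries gave 1 to 4. With NAA40-KD (+dox) against NAA40-KD (−dox) it was 2, and 1 at an adjusted p under 0.01, and leaving out single libraries gave 1 to 7. The 4 and the 7 came without NAA40-KD (−dox) replicate 4. In NAA40-KD (+dox) against SCR (+dox) it was 4, and 2 at an adjusted p under 0.01, 0 with a fold threshold of 1 and 0 with the fit over all 16 libraries. Leaving out single libraries gave 3 to 5 there, and 2 to 3 for the interaction, which had 2 called and 1 at an adjusted p under 0.01. Calls over all genes moved as well. In NAA40-KD (−dox) against SCR (−dox), 400 of 13903 were higher and 492 lower. DESeq2 called 936 and 978 of them, and the fit over all 16 libraries 1440 and 1511 of 14392. Without NAA40-KD (−dox) replicate 4 the numbers were 2347 and 2674 of 13751. In NAA40-KD (+dox) against NAA40-KD (−dox) they were 652 and 762 of 13844 with that library, and 3537 and 3646 of 13700 without it. The cause was not tested.

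The sign of some log2 ratios turned when single libraries were left out. The NAA10 to NAA15 difference ranged from −0.0901 to 0.81 in NAA40-KD (−dox) against SCR (−dox), the lowest without NAA40-KD (−dox) replicate 4, and from −0.0029 to 0.90 in NAA40-KD (+dox) against NAA40-KD (−dox). NAA20 to NAA25 ranged from −0.0932 to 0.30 in the latter, with −0.0093 without NAA40-KD (−dox) replicate 1. NAA40 to the other 9 ranged from −0.0085 to 0.19 in NAA40-KD (+dox) against SCR (+dox). Between the SCR groups it ranged from −0.14 to 0.058, with 0.036 without SCR (−dox) replicate 1 and 0.0046 without SCR (+dox) replicate 3, and NAA15 to NAA16 from −0.24 to 0.0003.

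Whether the replicate numbers pair the libraries was not settled, since the comparisons differed. Deviations from the group means of same-numbered libraries correlated over 0.1 in 2, 1, 3 and 0 of 4 numbers in the comparisons of the lines at (+dox), the lines at (−dox), the dox labels in NAA40-KD and the dox labels in SCR (range −0.469 to 0.271), and 4, 1, 5 and 0 of 8 libraries correlated best with their own number. With the replicate block, NAA40 gave −1.31 (edgeR, adjusted p = 0.0442) in NAA40-KD (−dox) against SCR (−dox). The numbers of the 10 genes called were 5, 1, 2 and 0 in the order above and 2 for the interaction. The fifth was NAA30 (0.27, adjusted p = 0.0382), and the block changed no other call of the 10 genes. Over all genes the block called 1927 higher and 2143 lower of 13869 for the lines at (+dox), and 24 and 58 of 13903 for the lines at (−dox). For the dox labels it called 361 and 416 of 13844 in NAA40-KD and 0 and 0 of 13882 in SCR. For the interaction it called 615 and 602 of 14392.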
